A study of Rattus norvegicus with 43 samples.

Results

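The 9 genes examined here direct lymphocytes into and within gut lymphoid tissue, and were followed through the distal colon of rats on 6 diets: the chemokines Cxcl13, Ccl19, Ccl20 and Cxcl12, the receptors Cxcr4, Ccr7 and P2ry10, the integrin subunit Itga4 and the addressin Madcam1. They were taken by symbol from the array annotation, with the probe set of highest mean for each symbol, and are 9 of 14506 genes with a probe set. All 9 reached the floor set for testing, as did 10828 genes in all.

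RNA from the distal colon of Sprague Dawley rats aged 11 weeks, with 100 ng of total RNA taken per animal, was measured on Affymetrix arrays as RMA log2 values. The 43 arrays, each from a different rat, comprised 5 on the control diet (CON), 7 on LAMS, 8 on HAMS, 9 on HAMSB, 6 on LAW and 8 on HAW. The labels name the control diet and give the others as codes, with HAM for HAMS. From what is known of the study they stand for a control diet (CON) and for Western-type diets. These held maize starch low in amylose (LAMS), rich in amylose (HAMS) or rich in amylose and butyrylated (HAMSB), or wheat low (LAW) or rich (HAW) in amylose. High-amylose starch resists digestion in the small intestine and is fermented in the colon, and the butyrylated form carries esterified butyrate.

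Lymphocytes leave the blood where endothelium displays addressins and chemokines, and then sort into B cell follicles and T cell zones along chemokine gradients. In the colon this takes place largely in isolated lymphoid follicles and colonic patches, which are scattered along the wall, and in the lamina propria. In whole tissue, fewer cells of a type and less RNA per cell cannot be told apart. The epithelial marker list had array means of 9.82 to 11.00, so that epithelium was measured in every sample.

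The promoters of the 3 members Ccl20, Ccl19 and Madcam1 are shown because they hold a match to an NF-kB type motif, GGGAA and CCC with any 2 bases between them on either strand, in the 250 bases before the gene start. NF-kB is the transcription factor family that acts downstream of lymphotoxin and tumour necrosis factor receptors, which organise lymphoid tissue. The sequences are those of RefSeq on GRCr8, 5′ to 3′ on the gene's strand, with the matches in capitals. They lie at chr9:91836909-91837158 on the plus strand for Ccl20, chr5:61761165-61761414 on the minus strand for Ccl19 and chr7:10690323-10690572 on the minus strand for Madcam1.
Ccl20: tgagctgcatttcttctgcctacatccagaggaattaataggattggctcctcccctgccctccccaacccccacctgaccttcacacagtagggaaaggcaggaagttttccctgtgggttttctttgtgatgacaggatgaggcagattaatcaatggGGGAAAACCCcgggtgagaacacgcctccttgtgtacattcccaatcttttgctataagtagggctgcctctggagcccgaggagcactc
Ccl19: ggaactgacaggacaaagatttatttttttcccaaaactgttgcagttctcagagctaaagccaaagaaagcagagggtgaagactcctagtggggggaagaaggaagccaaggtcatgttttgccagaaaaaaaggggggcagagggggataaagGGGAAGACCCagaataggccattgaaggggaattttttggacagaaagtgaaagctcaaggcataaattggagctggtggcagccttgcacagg
Madcam1: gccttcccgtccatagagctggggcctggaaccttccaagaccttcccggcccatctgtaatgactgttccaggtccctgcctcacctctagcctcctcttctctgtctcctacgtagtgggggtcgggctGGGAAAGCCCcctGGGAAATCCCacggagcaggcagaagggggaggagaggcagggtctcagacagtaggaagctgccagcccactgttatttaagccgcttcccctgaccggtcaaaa
The match starts 90 bases before the gene start in Ccl20 and 94 in Ccl19. Madcam1 holds 2 matches, starting 119 and 106 bases before the gene start. Promoters of 8 of the 9 members were in the table used. Among all 33469 promoter windows of the same length, 640 (1.91%) held a match and 9 (0.0269%) held 2 or more. The motif was chosen after the sequences were seen, and a match describes letters only.

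Ligands were examined first. Cxcl13, which draws B cells into follicles through Cxcr5, had a mean of 7.43 ± 1.91 (SD, n = 8) on HAMS, 6.69 ± 1.70 (n = 7) on LAMS and 6.64 ± 1.74 (n = 9) on HAMSB, all on the log2 scale. Its lowest, median and highest values were 4.35, 8.32 and 9.15 on HAMS, and 4.38, 6.16 and 9.56 on HAMSB. The means on LAW (6.63), HAW (6.15) and CON (5.87) were lower still, but every diet held at least 1 array between 4.35 and 5.12 and at least 1 at 8.78 or above. No neighbouring pair in this order of diets differed by as much as the SD within a diet.

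Ccl19, the ligand of Ccr7 in T cell zones, had its highest mean on HAMS, 7.90 ± 1.76 (n = 8), followed by HAMSB at 6.54 ± 1.70 (n = 9). The other diets lay between 5.83 ± 2.04 (CON, n = 5) and 6.29 ± 2.10 (LAW, n = 6). The 5 control values had a lowest of 4.60, a median of 4.98 and a highest of 9.45, so that 1 animal set the upper end. Across all 43 arrays the Ccl19 values left a gap of 1.65 in which no array fell: 27 arrays lay at 5.92 or below and 16 at 7.56 or above. Above the gap were 6 of 8 HAMS arrays, 3 of 9 HAMSB arrays, and 1 of 5, 2 of 7, 2 of 6 and 2 of 8 arrays on CON, LAMS, LAW and HAW.

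Ccl20, made by the epithelium over lymphoid follicles and the ligand of Ccr6, varied less. Its mean was highest on HAMS, 6.65 ± 0.39 (n = 8), and lowest on LAMS, 6.22 ± 0.28 (n = 7). The 8 HAMS arrays ran from 6.22 to 7.31 with a median of 6.63, the 7 LAMS arrays from 5.86 to 6.68 with a median of 6.20, and the 9 HAMSB arrays from 5.35 to 7.30 with a median of 6.37. The groups overlapped.

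Cxcl12, a stromal chemokine and the ligand of Cxcr4, followed another order. Its means were highest on CON, 9.35 ± 0.14 (n = 5), and HAMSB, 9.33 ± 0.16 (n = 9), and lay from 9.09 to 9.13 on the other 4 diets. The control arrays read 9.44, 9.24, 9.18, 9.36 and 9.53. The LAMS arrays ran from 8.88 to 9.30 with a median of 9.06, the HAMS arrays from 8.72 to 9.55 with a median of 9.12, and the HAMSB arrays from 9.07 to 9.58 with a median of 9.39. Cxcl12 was the member with the largest share of its variance between diets, 30.7%, against a median of 23.4% over all genes.

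The receptors shared a profile. Cxcr4, the receptor for Cxcl12 on most leukocytes, had a mean of 9.27 ± 1.64 (n = 8) on HAMS and of 7.14 ± 1.21 (n = 9) on HAMSB, the highest and lowest of the 6 diets. Its HAMS arrays ran from 6.35 to 10.85 with a median of 10.01, and its HAMSB arrays from 5.86 to 9.90 with a median of 6.87. On HAMS 4 arrays lay above every HAMSB array, and 3 HAMSB arrays lay below every HAMS array, while the remainder overlapped.

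Ccr7, which guides naive T cells and dendritic cells towards Ccl19, had a mean of 7.53 ± 1.07 (n = 8) on HAMS and 6.34 ± 0.59 (n = 9) on HAMSB. The HAMS arrays ran from 5.77 to 8.69 with a median of 7.98, and the HAMSB arrays from 5.65 to 7.52 with a median of 6.10. On HAMS 5 arrays lay above every HAMSB array. P2ry10, a lysophospholipid receptor of lymphocytes, had a mean of 6.85 ± 1.42 (n = 8) on HAMS and 4.73 ± 1.29 (n = 9) on HAMSB. Its HAMS arrays ran from 4.59 to 8.51 with a median of 7.14, and its HAMSB arrays from 3.57 to 7.42 with a median of 4.32. Here 6 of the 9 HAMSB arrays lay below every HAMS array. Of the HAMSB arrays of P2ry10, 7 of 9 lay under the floor for testing of 4.79, as did 1 of 8 HAMS arrays and 20 of 43 in all. Without the HAMS arrays its median was 4.71, under that floor, so P2ry10 was tested only because of the diet on which it was high.

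Itga4 encodes the alpha subunit of the integrin with which gut-homing lymphocytes bind Madcam1. Its mean was 7.96 ± 1.23 (n = 8) on HAMS and 6.31 ± 0.96 (n = 9) on HAMSB. The HAMS arrays ran from 5.97 to 9.30 with a median of 8.30, and the HAMSB arrays from 5.34 to 8.35 with a median of 5.99. Madcam1, the addressin on mucosal vessels, had a mean of 6.88 ± 0.33 (n = 8) on HAMS and 6.70 ± 0.50 (n = 9) on HAMSB, with ranges of 6.43 to 7.36 and 6.09 to 7.48. The 4 remaining diets lay between 6.36 and 6.59 on average for Madcam1, within the spread of single arrays.

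**Figure D1:**
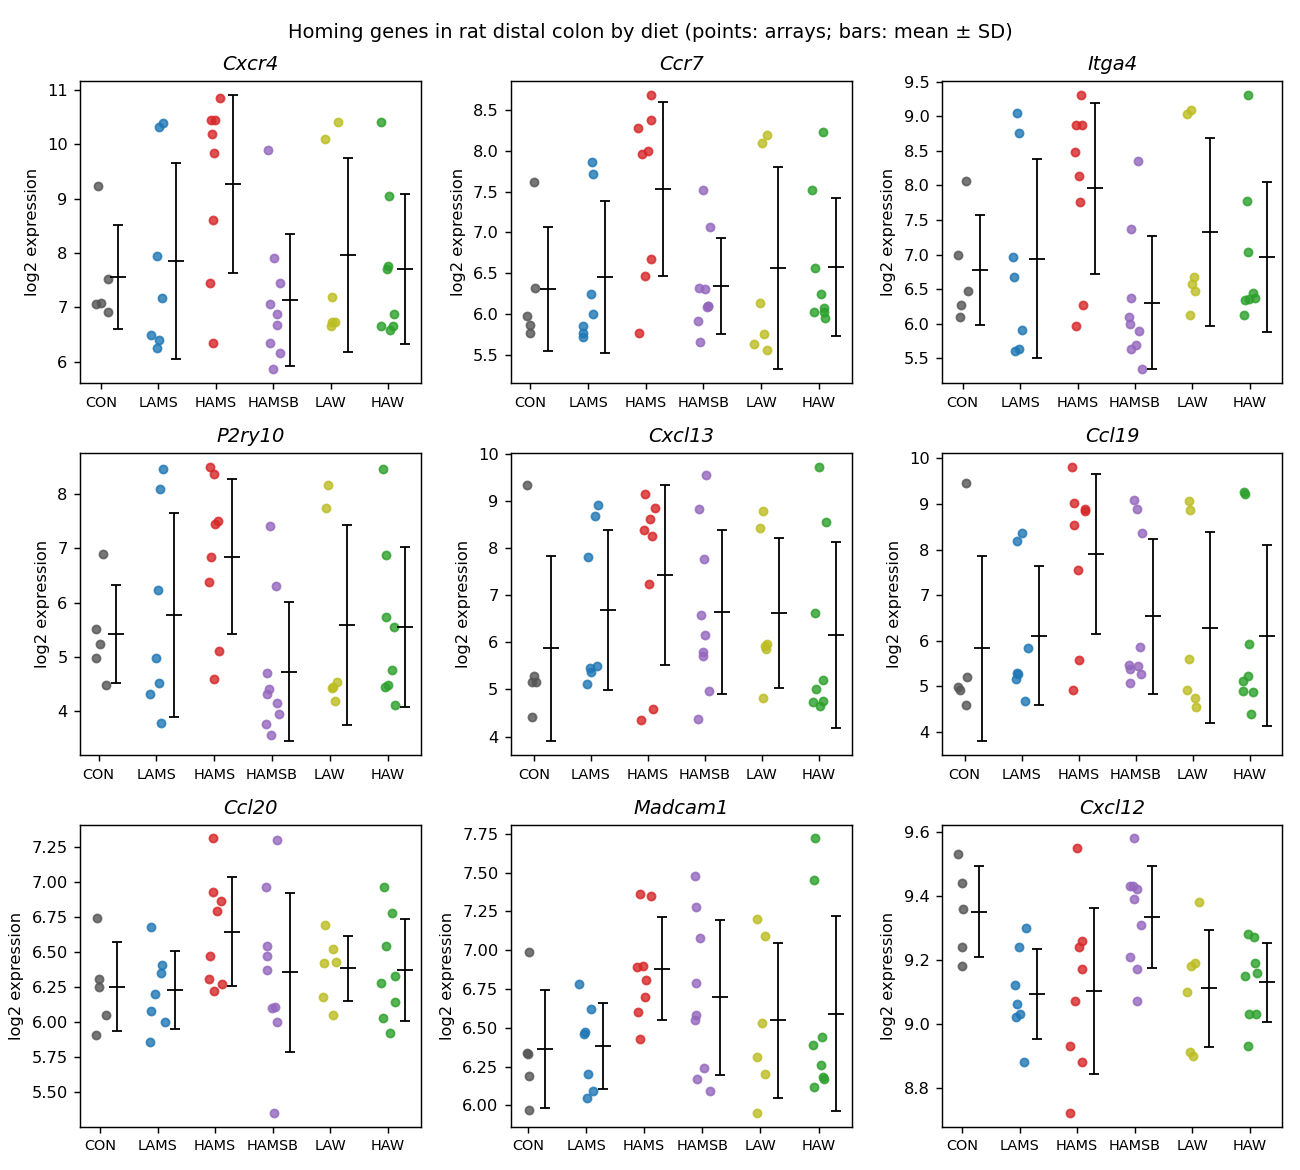
Log2 expression of the 9 homing genes on each array (points) by diet, with the mean and SD of each diet as a bar beside them; the vertical scale differs between panels. Cxcr4, Ccr7, Itga4 and P2ry10 are highest on HAMS, where most but not all arrays lie high, and every diet holds at least 1 array at or above 9.23 for Cxcr4.

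The comparison of HAMSB with HAMS asks what butyrylation of the high-amylose starch changed. The 4 genes carried by the lymphocytes themselves were lower on HAMSB: Cxcr4 fell by 2.13 ± 0.68 (SE) on the log2 scale, P2ry10 fell by 2.12 ± 0.69, Itga4 fell by 1.65 ± 0.53 and Ccr7 fell by 1.19 ± 0.42. For Cxcr4 this is 4.39-fold (95% interval 1.69 to 11.4), for Itga4 3.14-fold (1.49 to 6.63) and for Ccr7 2.28-fold (1.27 to 4.10) lower. The difference of P2ry10 rests on HAMSB values mostly under the floor, so no fold is given for it. The limma adjusted p-values, taken over all 10828 genes, were 0.0291 for Cxcr4, 0.0318 for P2ry10, 0.0302 for Itga4 and 0.0455 for Ccr7. So 4 of the 9 members were lower and 0 higher, where 2.58% of all genes were lower and 14.5% higher, 17% in all. P2ry10 passed the filter only through HAMS, which leaves Cxcr4, Itga4 and Ccr7 as the 3 whose test did not depend on it. At an unadjusted p under 0.05 there were 5 members, with 35% of all genes. No member separated HAMS from HAMSB without overlap, and the share of all genes that did so was not counted.

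The ligands and the addressin did not pass in this comparison. Ccl19 differed by -1.36 ± 0.84 (adjusted p = 0.244, limma), Cxcl13 by -0.79 ± 0.83 (0.52), Ccl20 by -0.29 ± 0.18 (0.254) and Madcam1 by -0.18 ± 0.21 (0.561). Cxcl12 differed by 0.23 ± 0.09 in the other direction, with an adjusted p of 0.0623. The intervals of Ccl19, -3.06 to 0.33, and of Cxcl13, -2.47 to 0.89, are wide enough to hold the size found for Cxcr4. Whether receptors and ligands differed in their response was not tested. The median over the members was -1.19, against 0.07 over all genes.

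The calls rested on few arrays. Leaving out each array in turn gave from 0 to 5 members changed: 0 without HAMS replicate 2, 4, 7 or 8 or HAMSB replicate 3 or 5, 1 without HAMSB replicate 1, and 5 without HAMS replicate 3. With HAMS replicate 6, HAMSB replicate 2 or HAMSB replicate 8 left out, 2 members passed. The adjusted p never rose above 0.0808 for Cxcr4, 0.0856 for Itga4, 0.0876 for P2ry10 and 0.122 for Ccr7 in these 43 fits. For P2ry10, which passed the filter only through HAMS, the limit given above holds here too.

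The array files carry 3 styles of name, which may mark batches. All 8 HAMS arrays share a style with 5 of the 9 HAMSB arrays. With the style as a block Cxcr4 fell by 2.68 (adjusted p = 0.00863, limma), P2ry10 fell by 2.80 (0.00582), Itga4 fell by 2.18 (0.00498) and Ccr7 fell by 1.46 (0.0196), and Cxcl12 rose by 0.26 (0.0429). Within the shared style Cxcr4 fell by 2.59 (0.0167), P2ry10 fell by 2.77 (0.00845), Itga4 fell by 2.15 (0.012) and Ccr7 fell by 1.44 (0.0277). P2ry10 passed the filter only through HAMS, so its values in these fits lend no support of their own. Itga4 itself differed between styles with diet in the model (adjusted p = 0.0385), as did 42.7% of all genes.

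B cell markers moved with these genes. The averaged level of 8 tested B cell and germinal centre genes, here called the lymphoid level, had a median of 8.43 on HAMS (5.66 to 9.38, n = 8) and of 5.84 on HAMSB (5.68 to 8.31, n = 9). Ms4a1 and Fcer2 of that list were under the floor. Of the 8 B cell genes 1 was lower on HAMSB, with a median difference of -1.57, and of 12 T cell genes 2 were lower, with a median of -1.07. The epithelial list had a median difference of 0.30 (5 of 12 higher), the endothelial list 0.30 (5 of 13 higher) and the fibroblast list 0.25 (3 of 10 higher). Smooth muscle had 0.31 (2 of 9 higher), and the list of dendritic cells and macrophages -0.00257 (1 of 12 lower). Over all genes, 14.5% were higher and 2.58% lower in this comparison. With the lymphoid level as a covariate the differences shrank to -0.53 for Cxcr4 (adjusted p = 0.121, limma), -0.50 for P2ry10 (0.188), -0.40 for Itga4 (0.145) and -0.21 for Ccr7 (0.462), and 0 of 9 members passed. With the covariate and the name style together, Itga4 fell by 0.59 (0.00689) and P2ry10 fell by 0.74 (0.0337), and Cxcr4 and Ccr7 did not pass. The limit that P2ry10 passed the filter only through HAMS holds here too. The covariate is itself expression measured on these arrays, and whether lymphoid tissue content accounts for the differences was not tested.

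HAMS against LAMS asks what high-amylose maize starch changed. All 9 members had a positive difference under the main settings, with a median of 1.01 against -0.09 over all genes, but 0 of 9 passed where 14.2% of all genes did. The sign was not kept by 5 members in other models: the lymphoid level as a covariate gave Itga4 -0.0373, P2ry10 -0.28, Cxcl13 -0.84 and Cxcl12 -0.0120, and with the name style added Ccl19 was -0.26. The B cell genes had 8 of 8 differences positive with a median of 1.33, and the T cell genes 12 of 12 with a median of 1.05, and 0 of either list passed with limma (at an unadjusted p under 0.05, 4 and 6). Lower medians were found for the lists of fibroblasts (-0.46, 6 of 10 lower), epithelium (-0.33, 2 of 12 lower) and smooth muscle (-0.30, 3 of 9 lower). The endothelial list had a median of -0.16 (2 of 13 lower, 1 higher). The share of all genes that was lower in this comparison was not counted apart from the 14.2% in either direction. Their part in the members' differences was not tested. At an unadjusted p under 0.05 there were 3 (33.7% of all genes): Ccr7 at 1.07 ± 0.45 (adjusted p = 0.0891, limma), Madcam1 at 0.50 ± 0.23 (0.118) and Ccl20 at 0.42 ± 0.19 (0.122). Ccl19 differed by 1.79 ± 0.89 (0.152) and Cxcr4 by 1.42 ± 0.73 (0.162). The interval of Cxcr4 ran from -0.05 to 2.89. On LAMS 2 arrays reached 10.3 or more for Cxcr4 while the median was 7.18, and the groups overlapped. All 8 HAMS arrays but only 3 of the 7 LAMS arrays share a style of file name. Those 3 LAMS arrays had 6.25, 6.49 and 6.41 for Cxcr4, and the 2 high ones carry another style. Diet and name style are thus partly mixed here and cannot be fully told apart. With the name style as a block, or within the shared style, 0 of 9 members passed with limma. Leaving out LAMS replicate 4 or HAMS replicate 1 brought Ccr7 past the threshold, as 1 member changed.

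HAMSB against LAMS is the net difference between the butyrylated starch and the low-amylose diet; it shares its arrays with the comparisons above. None of the 9 members passed with limma (6.84% of all genes did), and 1, Cxcl12, had an unadjusted p under 0.05 (26.2% of all genes). Cxcl12 was 0.24 ± 0.09 higher on HAMSB with an adjusted p of 0.0895. The lymphocyte receptors had differences of -0.72 ± 0.71 for Cxcr4, -1.04 ± 0.72 for P2ry10 and -0.11 ± 0.44 for Ccr7, and Itga4 of -0.64 ± 0.55. With the lymphoid level as a covariate Itga4 fell by 0.44 (adjusted p = 0.0381, limma) and P2ry10 fell by 0.78 (0.0100). P2ry10 passed the filter only through HAMS, a diet outside this comparison, and 7 of its 9 HAMSB arrays lay under the floor.

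**Figure D2:**
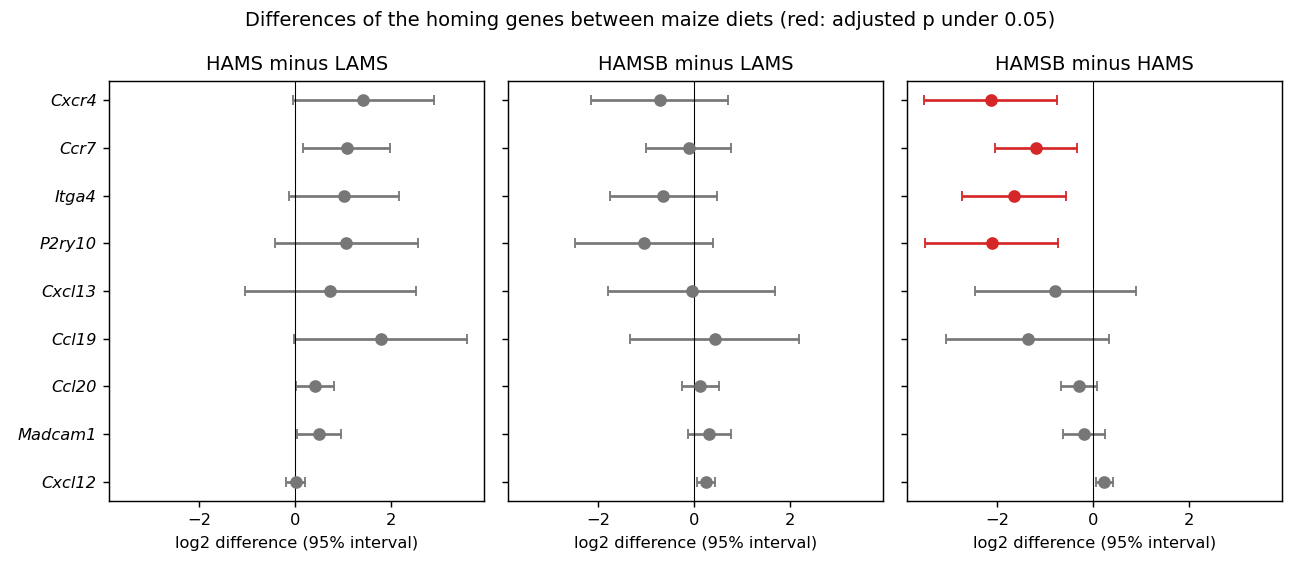
Log2 differences of the 9 homing genes (rows) in 3 comparisons of maize diets, with 95% intervals from limma; red marks an adjusted p under 0.05. Only Cxcr4, Ccr7, Itga4 and P2ry10 on HAMSB minus HAMS are red, while every point of HAMS minus LAMS lies above 0 in this model, which holds no lymphoid level. P2ry10 passed the filter for testing only through HAMS.

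The Western diet and the wheat diets gave no call. In LAMS against CON 0 of 9 members passed with limma, as did 0% of all genes, and 1 had an unadjusted p under 0.05, against 8.64% of genes: Cxcl12 differed by -0.26 ± 0.11 (adjusted p = 0.463). In HAW against LAW the members lay between -0.47 (Cxcl13) and 0.04 (Madcam1), and in LAW against LAMS between -0.19 (P2ry10) and 0.38 (Itga4). These ends moved with single arrays: leaving out each in turn, the lowest member ran from -0.98 to -0.04 and the highest from -0.00118 to 0.49 in HAW against LAW, and from -0.71 to 0.06 and from 0.13 to 0.73 in LAW against LAMS. In both of these comparisons 0 of 9 members passed with limma or had an unadjusted p under 0.05, and 0% of all genes passed; 1.93% and 1.74% of genes had an unadjusted p under 0.05. For Cxcr4 the interval of HAW minus LAW ran from -1.79 to 1.28. The HAMS minus LAMS difference of Cxcr4, 1.42, lay above that interval, but its own interval ran from -0.05 to 2.89. The difference HAW minus LAW less the difference HAMS minus LAMS ran from -1.97 ± 1.29 (Ccl19) to 0.01 ± 0.14 (Cxcl12); 0 members passed with limma or had an unadjusted p under 0.05, whereas 0.0277% and 15.3% of all genes did. Over all 6 diets the moderated F test called 31% of all genes and 0 of 9 members, with 1, Cxcl12, at an unadjusted p under 0.05 (adjusted p = 0.0586), as for 45.9% of all genes.

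Most of the variation in these genes lay between animals on the same diet, as it did for the median gene. The share of variance between diets ran from 7.4% (Cxcl13) to 30.7% (Cxcl12), against a median of 23.4% over all genes. The SD within diets was 1.84 for Ccl19 and 1.82 for Cxcl13, the genes ranked 2 and 3 of 10828 by this measure. P2ry10 (1.51, rank 14), Cxcr4 (1.5, rank 17), Itga4 (1.17, rank 57) and Ccr7 (0.92, rank 125) followed, against a median of 0.24 over all genes. Madcam1 had 0.46 and Ccl20 0.39. Cxcl12, at 0.18 and rank 9306, varied less than most genes. Each of the 8 members other than Cxcl12 rose with the lymphoid level with diet in the limma model, as did 18.4% of all genes. The slopes were 1.32 ± 0.08 (SE) for Ccl19, 1.31 ± 0.08 for Cxcl13, 1.12 ± 0.05 for P2ry10 and Cxcr4, 0.87 ± 0.04 for Itga4, 0.68 ± 0.03 for Ccr7, 0.28 ± 0.04 for Madcam1 and 0.18 ± 0.04 for Ccl20. That of Cxcl12 was 0.02 ± 0.02 (adjusted p = 0.505).

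**Figure D3:**
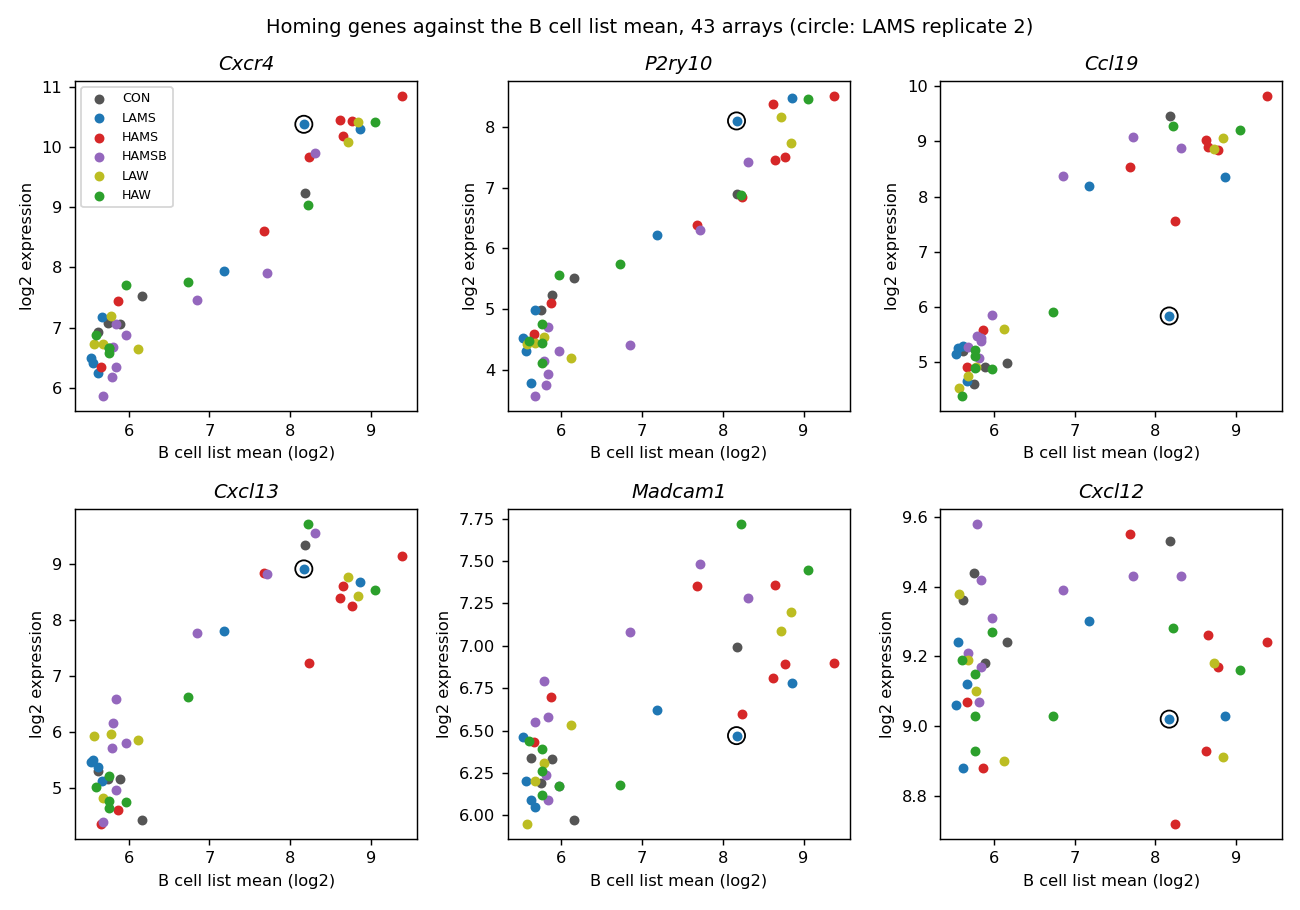
Log2 expression of 6 homing genes (vertical axes) against the averaged B cell genes, the lymphoid level (horizontal axes, log2), 1 point per array, coloured by diet; the circle marks LAMS replicate 2. Most arrays sit in a cluster at the lower left, the remainder spread to the upper right, the circled array lies low for Ccl19, and Cxcl12 shows no such spread.

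Because the arrays fall on the 2 sides of the Ccl19 gap, relations between members were read within each side, with diet means removed. The only control array above the gap had no other array of its diet there and was left out, so that 27 and 15 arrays remained. Pooled over all arrays, 29 of 36 member pairs passed a permutation test (100000 resamples within diets, Benjamini-Hochberg adjusted over 81 relations), but pooling carries the step between the sides. Within the sides 6 pairs below and 7 pairs above passed by Pearson's r.

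The pairs that passed on both sides were the 6 among Cxcr4, Ccr7, Itga4 and P2ry10. Below the gap their Pearson's r ran from 0.82 (Ccr7 with Itga4) to 0.92 (Cxcr4 with P2ry10), and above it from 0.89 (Ccr7 with P2ry10) to 0.96 (Itga4 with P2ry10). The pairs with P2ry10 are limited below the gap, where its median was 4.48 and its highest value 8.10. Most of its values there lay under the floor for testing, so r cannot show how P2ry10 relates to the others on that side. The pairs among Cxcr4, Ccr7 and Itga4, with no array under the floor, do not carry this limit. For Cxcr4 with Ccr7 r was 0.90 and Spearman's rho 0.75 below the gap (permutation p = 0.0007 and 0.00082, adjusted 0.00567 and 0.0083). Above the gap r was 0.94 and rho 0.95 (3e-05 and 5e-05, adjusted 0.00162 and 0.00142). Without the 2 arrays farthest from the median of the first gene, r over the 6 pairs ran from 0.59 to 0.76 below the gap and from 0.88 to 0.96 above it; for Cxcr4 with Ccr7 it was 0.72 and 0.95. LAMS replicate 2, described further on, lies below the gap. Values as high were found with the lists of other lymphocyte genes, so they are not particular to homing genes. With the T cell list mean, r was 0.93 below and 0.98 above for Cxcr4 (adjusted permutation p = 0.00189 and 0.00162). For Ccr7 it was 0.92 and 0.96 (0.00208 and 0.00162). Itga4 with the B cell list mean had 0.88 and 0.97 (0.0248 and 0.00186).

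Pairs that hold a ligand or the addressin were read in the same way, although the split was made on Ccl19, itself a ligand among them. This narrows the range of Ccl19 on each side, and that of members that follow it. Madcam1, with r = 0.86 to Ccl19 over all arrays, lay at 5.95 to 6.79 below and 6.60 to 7.72 above. A low r within a side therefore cannot show that such a pair is unrelated. Above the gap Cxcl13 with Ccl20 was the only such pair that passed by Pearson's r, at r = 0.82 and rho = 0.84 (permutation p = 0.00288 and 0.00316, adjusted 0.0156 and 0.0171), and r was 0.73 without the 2 farthest arrays. Below the gap the same pair had r = -0.04 (p = 0.853). Cxcr4 with Cxcl13 had r = 0.74 below (rho = 0.45; adjusted permutation p = 0.0905 and 0.145) and 0.34 above (rho = 0.35; adjusted 0.534 and 0.505). Itga4 with Madcam1, the integrin subunit and its ligand, had r = -0.02 below and -0.07 above (adjusted permutation p = 0.976 and 0.869). Pooled over all arrays, which carries the step between the sides, the r of Itga4 with Madcam1 was 0.67. Ccr7 with Ccl19, receptor and ligand, had r = 0.45 and rho = 0.36 below (adjusted permutation p = 0.116 and 0.227). Above the gap this pair had r = 0.44 (0.384) and rho = 0.69 (0.0384), so that it passed by rank alone. The difference between the sides was not tested.

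**Figure D4:**
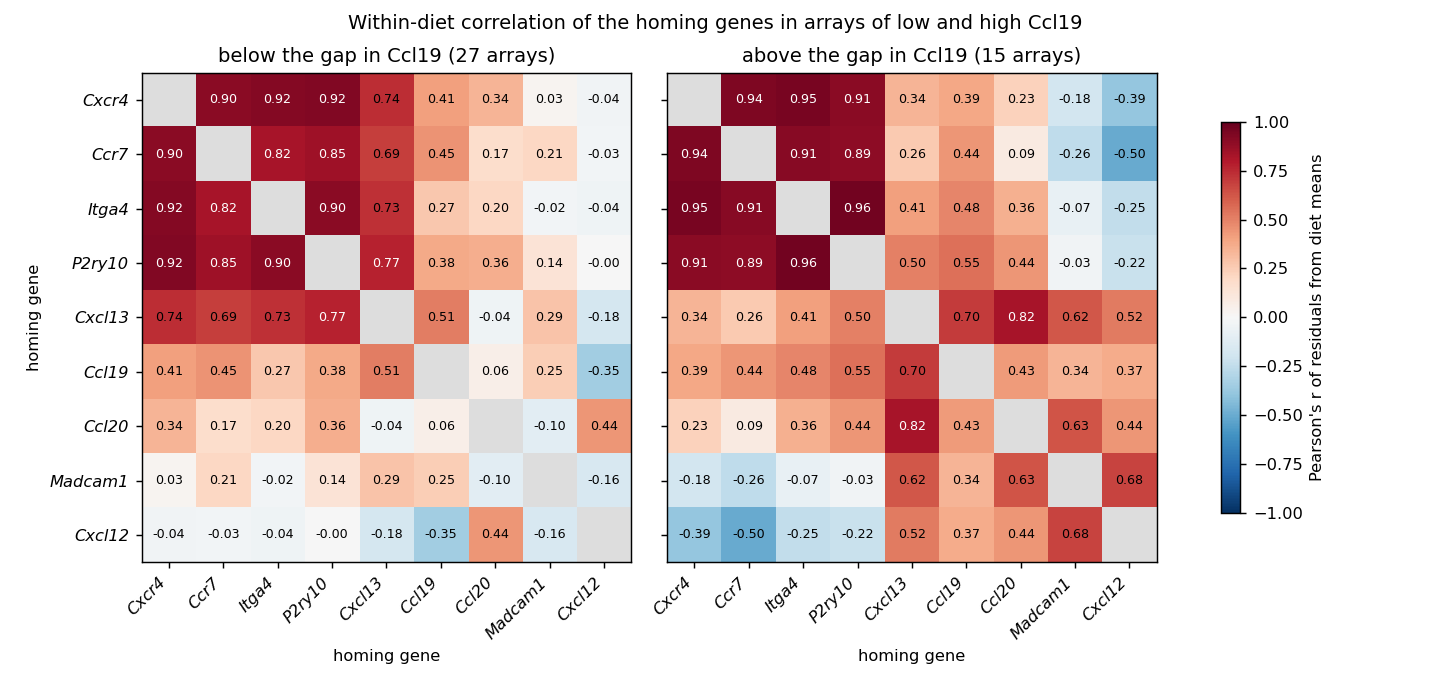
Pearson's r between the homing genes (both axes) over residuals from diet means, for arrays below (left) and above (right) the gap in Ccl19; colour gives r from -1 to 1 and grey marks the diagonal. The block of Cxcr4, Ccr7, Itga4 and P2ry10 holds r of 0.82 or more on both sides, whereas the pairs of these with Madcam1 lie at 0.21 or below. The split on Ccl19 also narrows the range of Madcam1 on each side, and below the gap the median of P2ry10 lies under the floor for testing.

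LAMS replicate 2 went against the usual pairing of Ccl19 with the other members. It had 10.38 for Cxcr4, 8.92 for Cxcl13 and 8.10 for P2ry10, at a lymphoid level of 8.17. Its Ccl19 was 5.84, whereas the 12 other arrays with as high a lymphoid level had 7.56 to 9.82. Its Madcam1 of 6.47 was also under the 6.60 to 7.72 of those 12 arrays, and its Cxcl12 of 9.02 was within their range of 8.72 to 9.53.

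By within-diet correlation over the 43 arrays, a description that includes the step between the sides, the genes most like each member were named. Cxcr4 was most like Ripor2, Satb1 and Slc9a7 (r = 0.98 each), Ccr7 most like Ets1, Arhgap30 and S1pr4 (0.98 each), and Itga4 most like Lrrk2, Dock2 and Pik3ap1 (0.99 each). P2ry10 was most like Arhgap15, Lrrk2 and Dock2 (0.98 each). Cxcl13 and Ccl19 shared Clu and Cr2, at r of 0.96 for each with Cxcl13, and at 0.94 and 0.95 with Ccl19; Cr2, a complement receptor of B cells and follicular dendritic cells, belongs to the lymphoid list. The third for Cxcl13 was Lyz2 (0.94) and for Ccl19 it was Cxcl13 (0.92). Madcam1 was most like Ccl19 (0.86), Clu (0.84) and Cxcl13 (0.83). Ccl20 had lower values, with Lsm8 (0.76), Rgs18 (0.70) and Prg2 (0.69), and so had Cxcl12, with Maf (0.60), Ifitm1 (0.59) and Csf1r (0.56).

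Other genes of the same system were read from 5 lists with 79 tested genes. On HAMSB against HAMS 14 of the 79 (17.7%) passed with limma, 9 higher and 5 lower, where 14.5% of all genes were higher and 2.58% lower. Of these, 5 of 21 other chemokines were among the higher and 0 among the lower: the eosinophil chemokine Ccl11 rose by 0.87 ± 0.19 (adjusted p = 0.00347, limma), Cxcl14 rose by 0.55 ± 0.15 and Ccl6 rose by 0.48 ± 0.14, with Cx3cl1 and the epithelial chemokine Ccl28. Of 21 other chemotactic receptors 3 were lower and 2 higher. Ccr4 fell by 0.59 ± 0.13, the oxysterol receptor Gpr183 fell by 1.08 ± 0.35 and Ccr6, the receptor for Ccl20, fell by 1.60 ± 0.57 (adjusted p = 0.0458). Ackr3, which binds Cxcl12 and removes it, rose by 0.44 ± 0.13 and Ccr1 rose by 0.36 ± 0.12. Of 18 integrins, selectins and ligands 1 was lower, Icam2 (fell by 0.69 ± 0.24), and of 12 organisers of lymphoid tissue 1 was higher, Tnfrsf1a (0.44 ± 0.12). Of 7 markers of follicle-associated epithelium and M cells, Spib, which B cells also express, fell by 1.64 ± 0.57 and Aif1 rose by 0.41 ± 0.13. Cx3cl1, Ccl28, Ccr1 and Ccr6 were named after their values were seen. With the lymphoid level as a covariate 3 of these 14 genes passed, Ccl11, Ccr4 and Aif1, and with the name style as a block 13 did. With both in the model 1 passed, Aif1 (adjusted p = 0.0462, limma).

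On HAMS against LAMS 7 of the 79 genes passed with limma, 8.86% against 14.2% of all genes: Ccl27 (0.38 ± 0.09) and Ccr4 (0.64 ± 0.14) were higher, and Ackr3 (-0.41 ± 0.14), Ccr1 (-0.39 ± 0.13), Itgb1 (-0.54 ± 0.11), Itga1 (-0.48 ± 0.14) and Anxa5 (-0.57 ± 0.13) were lower. Itgb1 encodes a beta chain with which Itga4 can pair. With the name style as a block 4 of the 7 passed, and Ccl27, Ccr1 and Itga1 did not; with the lymphoid level added to it 1 passed, Ackr3. On HAMSB against LAMS 2 of the 79 genes passed with limma, 2.53% against 6.84% of all genes. Itgb1 fell by 0.48 ± 0.11 and Marcksl1 rose by 0.33 ± 0.09, both also with the name style and the lymphoid level in the model. By the F test over 6 diets 15 of the 79 (19%) passed with limma, against 31% of all genes. These were 5 of 21 chemokines, with Ccl27, Ccl11 and Ccl24 at the smallest p, 3 of 21 receptors (Ccr4, Ackr3 and Ccr1), 3 of 18 integrins and ligands (Itgb1, Itga1 and Jam2), 1 of 12 organisers (Tnfrsf1a) and 3 of 7 markers of follicle-associated epithelium. With the name style as a block 7 of the 15 passed, with the lymphoid level 12 and with both 3. Ccr1 (adjusted p = 0.115, limma), Itga1 (0.215), Jam2 (0.546), Ccl27 (0.281) and Ccl24 (0.0584) were among those that missed the threshold with the name style as a block.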

How the data were processed

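Colon RNA of 43 rats was measured on Affymetrix arrays. The deposited log2 values of 29214 probe sets were made by the authors with RMA, the only tool named in the submitters' processing notes, with no version. RMA corrects background, brings arrays to a shared distribution and so can compress or shift differences. Genes were named from a platform annotation of 2016: 15310 probe sets had 1 symbol, 323 several and 13581 none. The probe set of highest mean stood for a symbol, and its median had to reach the 25th percentile of probe sets with 1 symbol, 4.79 on the log2 scale. Levels of different probe sets were not compared. Arrays have no read depth; their number limits the precision.

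A mean per diet was fitted with limma 3.58.1 (R 4.3.3; lmFit, eBayes) over all genes tested, with two-sided Benjamini-Hochberg adjusted p-values and a threshold of 0.05; the code was tested on simulated data. Correlations used residuals from diet means and permutations within diets (scipy 1.17.1). Members, lists and tests were chosen with earlier results of these data known. Named genes were the 9 members, the 3 genes most correlated with each, and up to 3 genes of smallest p per list. Alternatives were other filters, probe set rules, priors, weights, centring, blocks, covariates and leaving out each array. Each array is a different rat. Replicate numbers did not pair them: 94 same-numbered pairs had a median correlation of -0.05, and 37 exceeded 0.1. The 671 pairs with different numbers had a median of 0.02, and 292 exceeded 0.1.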

Additional observations from a re-analysis of the deposited data

Results flagged for a closer look

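Of 54 sets of values (9 genes in 6 diets), 4 held an array set far apart from the others of its diet; chance alone marks about 1 set in 20. Control replicate 5 stood apart in 3 genes: Cxcl13 was 9.34 where the other 4 control arrays had 4.42 to 5.29, Ccl19 was 9.45 against 4.60 to 5.21, and Cxcr4 was 9.23 against 6.92 to 7.52. HAMSB replicate 9 had 9.90 for Cxcr4, where the other 8 HAMSB arrays had 5.86 to 7.90.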

How the results depend on the processing

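Beside the leaving out of arrays, 4 members were lower on HAMSB than on HAMS under the main settings and 4 with the replicate block; with the lymphoid level as a covariate 0 passed and with the name style added to it 2 passed. These counts of 4 and 2 include P2ry10, which passed the filter only through HAMS. Ccr7 also missed the threshold with no filter (adjusted p = 0.0551, limma), a trended and robust prior (0.0567), the animal number range as a block (0.0603) and the spread of each array as a covariate (0.0677). Array weights gave 3 members in HAMS minus LAMS, 1 in HAMSB minus LAMS and 7 in the F test, where all genes called also rose, to 7507 in the F test. HAMSB minus LAMS gave 1 member with arrays centred on their median (Cxcl12), 2 with the lymphoid level and 1 with name style and lymphoid level. P2ry10, which passed the filter only through HAMS, was among the 2 with the lymphoid level. The F test gave 2 with the lymphoid level and 1 with name style added. Correlated pairs numbered 6 and 7 within the sides of the Ccl19 gap. Causes were not tested. Leaving out each array gave 0 to 5 members in HAMSB minus HAMS, 0 to 1 in HAMS minus LAMS, 0 to 2 in the F test, 0 in the other comparisons, and 29 to 32 correlated pairs.

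Signs turned for members that passed in neither setting. In HAMS minus LAMS the lymphoid level gave Itga4 -0.0373, P2ry10 -0.28, Cxcl13 -0.84 and Cxcl12 -0.0120, name style with it gave Cxcl13 -0.91, Ccl19 -0.26 and Cxcl12 -0.0405, and array weights gave Cxcl12 -0.0159. In HAMSB minus LAMS the shared name style alone gave Cxcr4 0.30, Ccr7 0.31, Itga4 0.0848 and Cxcl13 0.29, the lymphoid level Ccr7 0.0435 and Cxcl13 0.25, name style with it Ccr7 0.0490, the number range Cxcl13 0.16, the replicate block Ccl20 -0.0107 and Ccl19 -0.0220, array weights Ccl19 -0.0589 and the name style block Ccl19 -0.000303. In HAMSB minus HAMS the lymphoid level gave Cxcl13 1.09, Ccl19 0.53 and Madcam1 0.21, and name style with it 0.65, 0.62 and 0.18. Leaving out an array moved HAMS minus LAMS of Cxcl12 from -0.0523 to 0.0660, and HAMSB minus LAMS of Ccr7 from -0.26 to 0.12 and of Cxcl13 from -0.42 to 0.32. In the 4 other comparisons signs turned in 58 of 523 fits of members, in none of which the member passed. The highest member difference of LAMS minus CON moved to 2.03 with the name style block and 2.85 within the lower-case style.

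P2ry10 and Ccl19 fall under the stricter floor of 5.82, the 40th percentile, and were not tested there.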
